A study of Oryza sativa Japonica Group with 64 samples.

Results

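A set of 100 rice genes was described whose flag leaf transcripts were more abundant in long days (LD) than in short days (SD) at every time of day sampled. The genes were chosen from the leaf table of RNA-seq read counts by a rule on these same values. Counts were scaled to the library total and given as CPM (counts per 1000000), the 4 LD and the 4 SD libraries of each collection time were averaged over both genotypes, and the ratio (LD + 0.5)/(SD + 0.5) was taken at each of the 6 times. Of 55986 genes in the table, 15697 had an LD mean of at least 5 CPM at some time. The smallest of the 6 ratios was above 1 in 1196 of these, and the 100 genes with the highest smallest ratio, called the score below, form the set. The leaf LD to SD difference of these genes is therefore a description of how they were chosen and was not tested.

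The plants were Oryza sativa ssp. japonica, cultivar 9522, grown in paddy fields, either wild type (WT) or the csa mutant. LD plants had the natural day of about 14.5 h of light, and SD plants had 12 h because their plots were covered with lightproof film from 18:00 until 6:00. Flag leaves were taken every 4 h over 24 h when anthers were at stage 12, and anthers of the same tillers were taken at 16:00 and 04:00. Each combination of tissue, genotype, day length and time had 2 biological replicates, which gave 48 leaf libraries, 12 per genotype and day length, and 16 anther libraries, 4 per genotype and day length. Every SD plant was covered and no LD plant was, so day length and covering cannot be told apart. No source used here states the kind of csa mutation.

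Rice is a short-day plant that reads day length mainly in its leaves, where the circadian clock, the phytochromes and a set of floral regulators act together. Daily light also sets the supply of sugar, since flag leaves are the main source of carbohydrate for the developing panicle. The CSA gene (carbon starved anther) codes for a MYB-type regulator of sugar partitioning between leaves and anthers, and its loss is known to make pollen fail in SD but much less in LD. The deposited tables give locus identifiers without gene names or functions, and the reference at hand held none of these identifiers, so most of the genes are given by identifier and no role is stated for them.

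Library totals lay between 12.9 and 20.5 M counts in leaves (median 15.4 M) and between 18.0 and 26.0 M in anthers (median 21.1 M). Leaf identity was clear, with 8 photosynthesis genes summing to between 29816 and 134251 CPM in leaves. Of 10 anther and tapetum markers, 8 stayed at or below 1 CPM in every leaf library, and the 10 together summed to at most 4.64 CPM there. The genotype labels of leaves were checked on 8 genes whose level in csa was at least 2 log2 units away from WT. In the 4 libraries labelled SD at 12:00, 31 of 32 values of these genes were closer to the other genotype than to the labelled one. This was so for 1 of 32 values in the 4 LD libraries at 12:00 and for 5 of 160 in the 20 other SD libraries. The genotype comparisons of leaves are therefore given with and without the libraries labelled 12:00; the averages over genotypes that chose the set are not touched by this.

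The genes of highest score differed in level and in daily course. LOC_Os06g05050 had the highest score, 2.68, and was a rare transcript. Its CPM in 24 SD libraries ran from 0.0667 to 1.72 with a median of 0.422, and in 24 LD libraries from 1.07 to 11.4 with a median of 3.82. At each collection time the 4 LD libraries lay above the 4 SD libraries, while across times the ranges overlapped, because the lowest LD values at 08:00 were under the highest SD values at 20:00. LOC_Os07g29940, of score 2.58, had 0.670 to 3.12 CPM in SD (median 1.88) and 3.28 to 8.70 CPM in LD (median 6.39). It was the only one of the 100 in which all 24 LD libraries lay above all 24 SD libraries, against 0.00905% of the 22095 leaf genes tested.

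Among the abundant genes of the set, LOC_Os01g74160 had the highest LD mean, 313 CPM. Its values ran from 10.7 to 213 CPM in SD (median 77.0) and from 51.2 to 606 CPM in LD (median 310). It peaked at 16:00 in LD and at 20:00 in SD, and its ratio was smallest at 20:00 (2.44) and largest at 16:00 (4.93). LOC_Os06g38450 ran from 6.97 to 100 CPM in SD (median 28.8) and from 29.2 to 299 CPM in LD (median 107). This gene peaked at 16:00 in both day lengths, and its ratio grew from 2.50 at 08:00 to 7.50 at 04:00. LOC_Os01g48640 ran from 9.68 to 47.6 CPM in SD (median 18.9) and from 20.8 to 102 CPM in LD (median 48.8). Its ratio stayed between 2.16 and 2.86 at all 6 times.

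Other genes among the 10 of highest score differed in their daily course. LOC_Os01g43851 ran from 0.429 to 9.93 CPM in SD (median 0.994) and from 1.52 to 44.7 CPM in LD (median 4.19), with its peak at 16:00 in both. LOC_Os12g24320 ran from 1.86 to 15.1 CPM in SD (median 8.84) and from 10.7 to 52.0 CPM in LD (median 26.6), and its ratio fell from 6.79 at 08:00 to 2.29 at 20:00. LOC_Os09g13440 ran from 0.640 to 15.0 CPM in SD (median 4.71) and from 2.36 to 50.9 CPM in LD (median 17.3). In this gene the day lengths were separate at 3 of the 6 times. At 08:00 a csa LD library at 2.36 CPM was under SD libraries, at 16:00 a csa LD library at 11.2 CPM was under a WT SD library at 15.0 CPM, and at 20:00 a WT LD library at 9.52 CPM was just under a WT SD library at 9.54 CPM.

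LOC_Os01g06750 was higher in libraries labelled WT than in those labelled csa, except at 12:00 in SD. Its SD mean over both genotypes was low, from 0.139 CPM at 04:00 to 2.92 CPM at 16:00. In LD the 12 WT libraries had between 2.54 and 22.6 CPM and the 12 csa libraries between 0 and 0.867 CPM. In SD the 2 libraries labelled csa at 12:00 had 3.09 and 4.73 CPM and those labelled WT had 0.164 and 0 CPM, the reverse of the other times. At no time were its 4 LD libraries all above its 4 SD libraries. LOC_Os01g06240, the last of the 10, ran from 0.178 to 3.12 CPM in SD (median 1.06) and from 1.62 to 11.6 CPM in LD (median 3.199), with both peaks at 08:00.

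**Figure D1:**
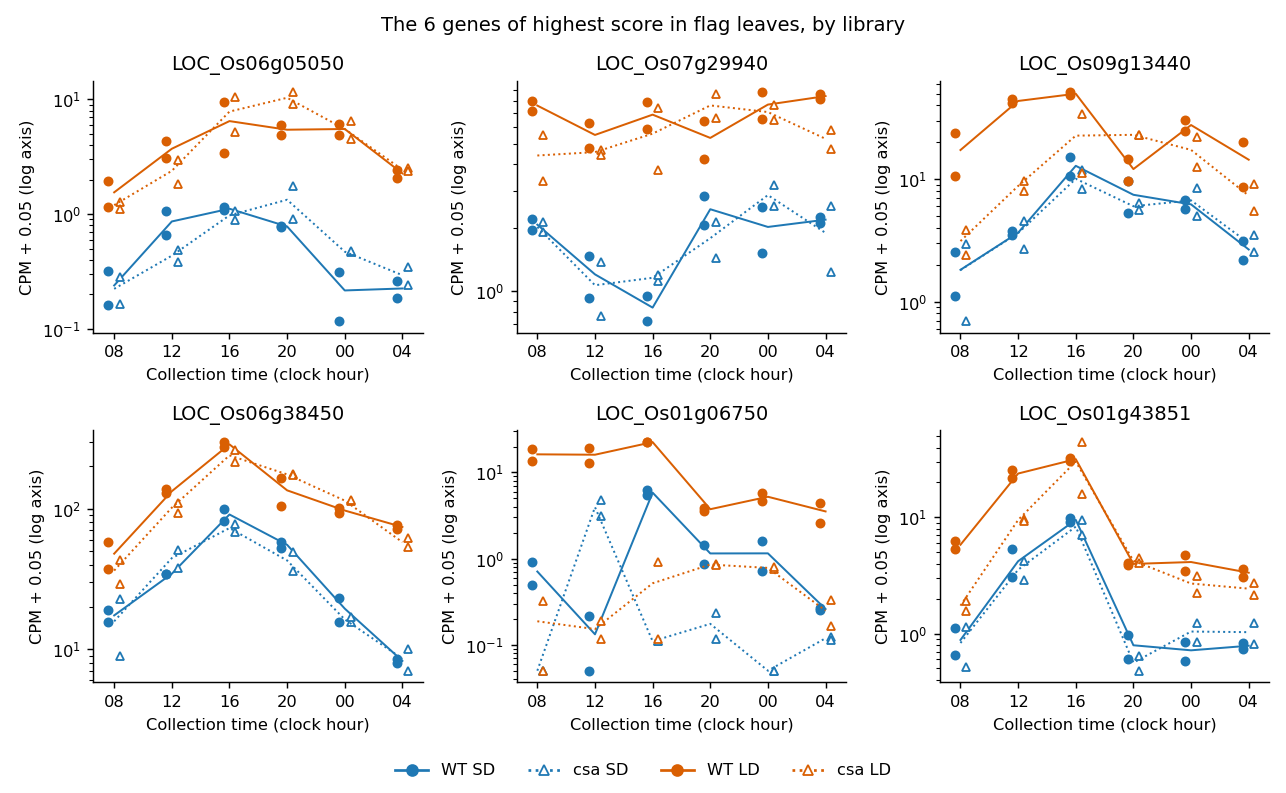
CPM + 0.05 on a log axis against collection time for the 6 genes of highest score, with 1 point per library, filled circles for WT, open triangles for csa, blue for SD and orange for LD, and lines through the means of 2 replicates. LD points lie above SD points at each time in LOC_Os06g05050, LOC_Os07g29940, LOC_Os06g38450 and LOC_Os01g43851, while in LOC_Os01g06750 the csa LD points, at 0 to 0.867 CPM, lie below the WT LD points.

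Scores fell from 2.68 to 1.38 with a median of 1.57, so the set has no natural edge. The last genes inside were LOC_Os02g14800 and LOC_Os02g50600, with scores of 1.380 each, and LOC_Os02g43090 with 1.378. The first outside were LOC_Os04g51330 with 1.375, LOC_Os10g40740 with 1.373 and LOC_Os12g12765 with 1.371. Most of the genes were not abundant. The mean over the 6 LD times ran from 3.13 to 313 CPM with a median of 14.3 CPM, and the SD mean from 0.233 to 158 CPM with a median of 5.11 CPM. The LD mean was at least 100 CPM in 6 genes and below 10 CPM in 39.

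The size of the difference varied over the day. The median ratio was 2.001 at 08:00, 2.41 at 12:00 and 2.72 at 16:00. It was 2.06 at 20:00, 2.13 at 00:00 and 2.22 at 04:00. The largest of a gene's 6 ratios fell at 12:00 in 34 genes and at 16:00 in 30, and the smallest at 08:00 in 26 and at 20:00 in 25. The highest single ratio was 97.3, in LOC_Os01g09220 at 12:00. The median of all tested genes was itself shifted on these library totals, by a log2 LD to SD ratio of 0.17 at 20:00 and 0.12 at 16:00, and lay within 0.1 of 0 at the other times. After TMM scaling (trimmed mean of M-values, which aligns the bulk of genes between libraries) the shift was at most 0.03 in size at any time. In the edgeR fit with TMM the median log2 difference of the 100 genes was 1.19 at 08:00, 1.46 at 16:00 and 0.92 at 20:00. The lowest median thus fell at 20:00 there and at 08:00 on library totals. In bulk tissue such as these leaves, fewer cells of a type and less RNA per cell cannot be told apart.

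**Figure D2:**
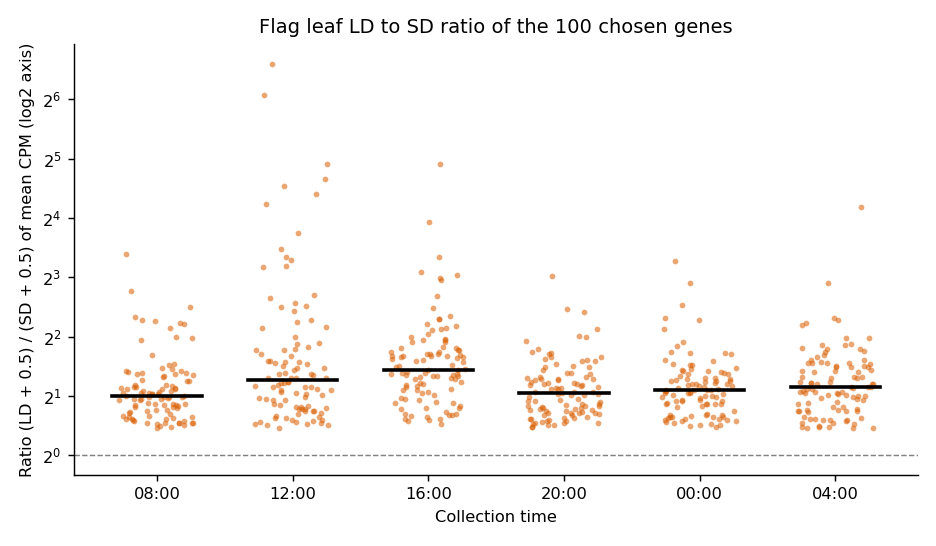
Ratio (LD + 0.5)/(SD + 0.5) of mean CPM on a log2 axis against collection time, with 1 point per gene for the 100 genes, a black bar at the median and a dashed line at 1. All points lie above 1, as the choice of genes requires, and the medians run from 2.001 at 08:00 to 2.72 at 16:00.

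Separation of single libraries was less complete than the ratios. The 4 LD libraries all lay above the 4 SD libraries at each of the 6 times in 28 of the 100 genes, and 0.208% of all tested genes did so. By time this held for 58 genes at 08:00 (9.94% of all tested genes), 61 at 12:00 (15.8%) and 83 at 16:00 (23.5%). At night it held for 75 at 20:00 (27.6%), 80 at 00:00 (13.9%) and 72 at 04:00 (11.1%). These counts describe the choice and carry no test. Computed in WT alone, the smallest ratio stayed above 1 in 97 genes, and in csa alone in 80, with 78 above 1 in both. These counts depend on the genotype labels of the doubtful SD libraries at 12:00. Without the libraries labelled 12:00, an alternative added after seeing the data, they were 97, 91 and 88. The smallest of fewer ratios cannot be lower, so these counts could only stay or rise. The change is therefore not read as a result on the labels.

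A daily rhythm was tested next, by fitting a 24 h sinusoid (cosine plus sine) to the mean of both genotypes. In LD 83 of the 100 genes were rhythmic and in SD 77, at an adjusted p below 0.05 (edgeR quasi-likelihood test with Benjamini-Hochberg adjustment). Of all tested genes 82% were rhythmic in LD and 82.1% in SD. The rule disfavours genes near 0 at any time, so the share of rhythmic genes in the set is not read as a result. Leaves were sampled over 24 h, so whether the course repeats on another day was not tested. The test uses the same leaf libraries as the rule. The fitted peak fell between 06:00 and 18:00 in 65 of the 83 genes in LD and in 52 of the 77 in SD. The median fitted difference between peak and trough of these rhythmic genes was 1.67 on the log2 scale in LD and 1.88 in SD. The highest mean fell at the same collection time in LD and SD in 47 genes. It fell 1 collection earlier in LD in 19 genes, 1 collection later in 11, and 2 or 3 collections away in 23. No share of all tested genes is given beside these counts of fitted peaks and of highest means, so they only describe the set.

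Of 224 genes in 20 lists of known function, LOC_Os05g04740 was the only one in the set, at rank 87; it stands in the list of photoreceptors and light signalling. At 08:00 its SD libraries had 5.58, 5.22, 4.54 and 4.13 CPM and its LD libraries 30.8, 24.04, 27.0 and 24 CPM. At 12:00 the SD libraries had 14.5, 11.8, 11.1 and 10.9 CPM and the LD libraries 19.2, 14.5, 18.7 and 17.6 CPM. The difference was thus about 5-fold in ratio at 08:00 (5.02) and small at 12:00 (1.43), where the highest SD and the lowest LD library were both at 14.5 CPM, and from 20:00 on the values were at or below 2.87 CPM in every library. Its highest mean fell at 08:00 in LD and at 12:00 in SD, and the fitted peaks lay at 10.3 h in LD and 11.1 h in SD.

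Listed genes of day-length response outside the set were more often lower than higher in LD leaves. Of 17 tested genes of the photoperiod and flowering list, 3 were higher and 8 lower in LD leaves, averaged over times (edgeR, adjusted p below 0.05 over all genes; median log2 −0.15). Of 13 clock genes 1 was higher and 8 were lower (median log2 −0.18), and of 9 other genes of photoreceptors and light signalling 1 was higher and 7 were lower (median log2 −0.32). The background was 27.5% of all tested genes higher and 29.8% lower. LHY (LOC_Os08g06110 in the list), a morning-phased MYB factor of the clock, had 17.39 to 7250 CPM in SD (median 537) and 5.87 to 5942 CPM in LD (median 226), with a log2 difference of −0.77 ± 0.06 (SE; edgeR adjusted p = 6.5e-13). MADS18 (LOC_Os07g41370), a MADS-box gene of the floral transition, had 100 to 318 CPM in SD (median 180) and 147 to 486 CPM in LD (median 294), with a log2 difference of 0.54 ± 0.05 (edgeR adjusted p = 1.56e-11). MADS56 (LOC_Os10g39130), a MADS-box gene that acts in the LD flowering pathway, had 87.5 to 255 CPM in SD (median 187) and 80.2 to 199 CPM in LD (median 146), with a log2 difference of −0.42 ± 0.05 (edgeR adjusted p = 1.04e-08).

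By identifier, 24 of the 100 genes lay on chromosome 1, which held 14.2% of the 15697 eligible genes. Chromosome 3 held 5 of them against 13.7% of the eligible genes. Some lay close together: 10 genes formed 8 pairs within 100 locus numbers. The closest groups were LOC_Os07g03025 with LOC_Os07g03030 and LOC_Os07g03040, and LOC_Os09g29540 with LOC_Os09g29560 and LOC_Os09g29600. Whether reads of such neighbours can be told apart depends on how the authors counted, which no source used here states, so whether their values are independent was not tested.

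The genotype comparison asked whether the set was expressed alike in csa leaves. In LD 25 of the 100 genes were lower in csa and none was higher, averaged over the 6 times (edgeR quasi-likelihood test, adjusted p below 0.05). Of all tested genes 1.63% were lower and 1.79% higher in csa in LD at that cut. An unadjusted p below 0.05, in either direction, was reached by 41 of the 100. The counts at an unadjusted p in this paragraph have no share of all tested genes beside them. The median log2 difference of the 100 genes was −0.15, and that of all tested genes was −0.00028. The comparison shares its LD libraries with the rule, and a gene could enter the set through high WT LD libraries alone. In 13 of the 25 the smallest ratio was below 1 in csa alone, and in 5 of the 25 without the libraries labelled 12:00. With a time left out that number could only stay or fall. The direction of the 25 calls is therefore partly set by the choice of genes, and their count is a description. In SD 1 gene was lower, LOC_Os01g06750, and none was higher, where 0.276% of all tested genes were lower and 0.217% higher; 7 had an unadjusted p below 0.05.

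LOC_Os01g06750 had the lowest p in both day lengths. Its log2 difference, csa minus WT, was −4.68 ± 0.24 in LD (SE; edgeR adjusted p = 5.99e-15) and −3.15 in SD (edgeR adjusted p = 0.00153). Its csa LD libraries were near 0, which limits the precision of the LD value. Without the libraries labelled 12:00 the SD difference was −4.92. Without replicate 1 of WT SD at 12:00 alone it was −2.54, in a fit that left that group with only a library without counts. This gene lies among 6 of the set below locus number 10000 of chromosome 1, the stretch that also holds most of the genotype markers. Whether the position of these genes bears on their csa difference was not tested.

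LOC_Os01g64470 was next in LD. At 12:00 its WT libraries had 57.0 and 197 CPM and its csa libraries 0.553 and 3.02 CPM. At 20:00 the order was the opposite, with 3.22 and 5.87 CPM in WT and 9.87 and 25.6 CPM in csa. Averaged over times, the log2 difference was −1.96 ± 0.24 (edgeR adjusted p = 1.74e-06).

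LOC_Os04g52090 had the same course. Its LD libraries at 12:00 had 94.6 and 226 CPM in WT and 4.98 and 9.71 CPM in csa, and at 20:00 8.14 and 18.4 CPM in WT and 19.9 and 48.5 CPM in csa. The log2 difference was −1.69 ± 0.22 (edgeR adjusted p = 6.58e-06). In LOC_Os01g09220, singled out for its ratio after its values were seen, the 12:00 libraries had 233 and 629 CPM in WT LD, 2.698 and 12 CPM in csa LD, and between 0.772 and 2.64 CPM in SD. At that time its WT libraries stood far above its csa libraries in LD.

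This midday pattern was common to most of the 25 genes lower in csa. In 20 of them the WT LD mean was highest at 12:00. Their median log2 ratio of WT over csa, each mean with 0.5 CPM added, was 0.0056 at 08:00, 3.45 at 12:00 and 2.09 at 16:00. It was −0.90 at 20:00, 0.66 at 00:00 and 1.34 at 04:00. WT was higher in all 25 at 12:00, 16:00 and 04:00, and in 2 of 25 at 20:00. These times were read after the 25 had been called on their average, and single times were not tested. In 22 of the 25, replicate 2 of WT LD at 12:00 was above replicate 1; without replicate 2 the count was 20 and without replicate 1 it was 26.

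The other 75 genes differed from these 25 at some times. In LD the mean of WT was above that of csa in 59 of the 75 at 08:00, 61 at 12:00 and 50 at 16:00, or 78.7%, 81.3% and 66.7%. It was above in 18 at 20:00, 29 at 00:00 and 67 at 04:00, or 24%, 38.7% and 89.3%. Of all tested leaf genes this held for 69.9% at 08:00, 59.9% at 12:00, 50.2% at 16:00, 42.4% at 20:00, 67.5% at 00:00 and 63.7% at 04:00. At 00:00 WT was above csa in 23 of the 25 and at 08:00 in 13 of the 25. These shares carry no test. Without the libraries labelled 12:00 of both day lengths, 6 genes were lower in csa in LD, LOC_Os01g06750, LOC_Os01g64470, LOC_Os04g52090, LOC_Os01g09220, LOC_Os01g72530 and LOC_Os06g04240, and none was higher, against 0.625% and 0.855% of all tested genes. In SD 1 gene, LOC_Os01g06750, was then lower and none higher, against 0.688% and 0.516%.

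**Figure D3:**
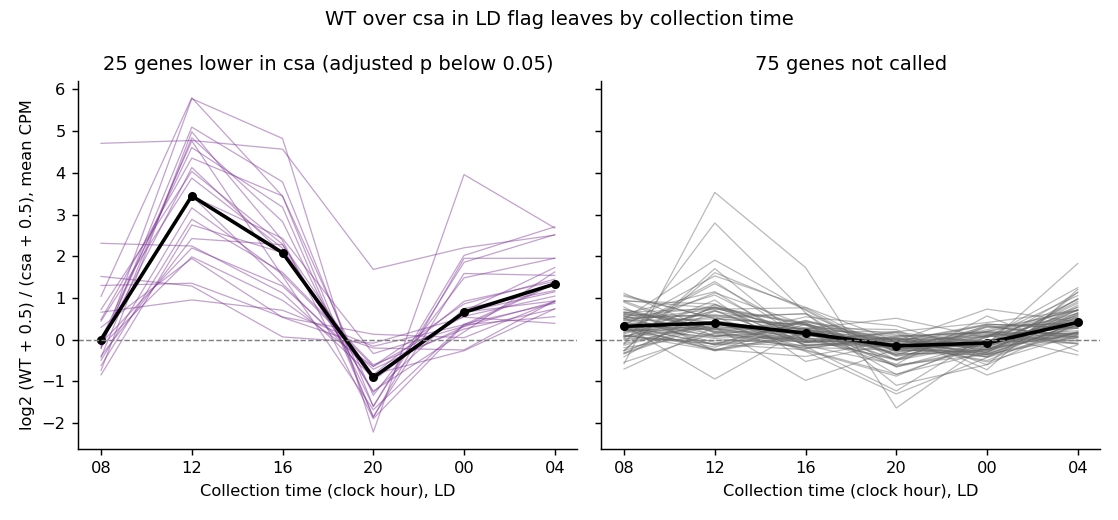
Log2 ratio of WT over csa mean CPM, with 0.5 CPM added to each, against collection time in LD leaves, with 1 thin line per gene, a black line for the median and a dashed line at 0; the left panel holds the 25 genes lower in csa and the right panel the other 75. The left median runs from 0.0056 at 08:00 through 3.45 at 12:00 to −0.90 at 20:00.

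The dependence of the genotype difference on day length was tested as an interaction. It passed in 4 of the 100 genes, each with a lower value of csa relative to WT in LD than in SD, where 0.109% of all tested genes passed in that direction and 0.186% in the other (edgeR, adjusted p below 0.05). The genes were LOC_Os01g64470, LOC_Os02g45710, LOC_Os04g52090 and LOC_Os02g54890. An unadjusted p below 0.05, in either direction, was reached by 25 of the 100. No share of all tested genes at that unadjusted cut is given here. The test uses the leaf libraries that chose the genes, and high WT LD values favoured entry to the set, so this direction too is partly set by the choice and nothing is read from the background share. Leaving out any of 17 single libraries in turn brought the count to 2. Without the libraries labelled 12:00 none passed (edgeR; 11 at an unadjusted p below 0.05), where 0.0317% of all tested genes passed with a lower and 0.104% with a higher value, and DESeq2 on all libraries called 9.

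**Figure D4:**
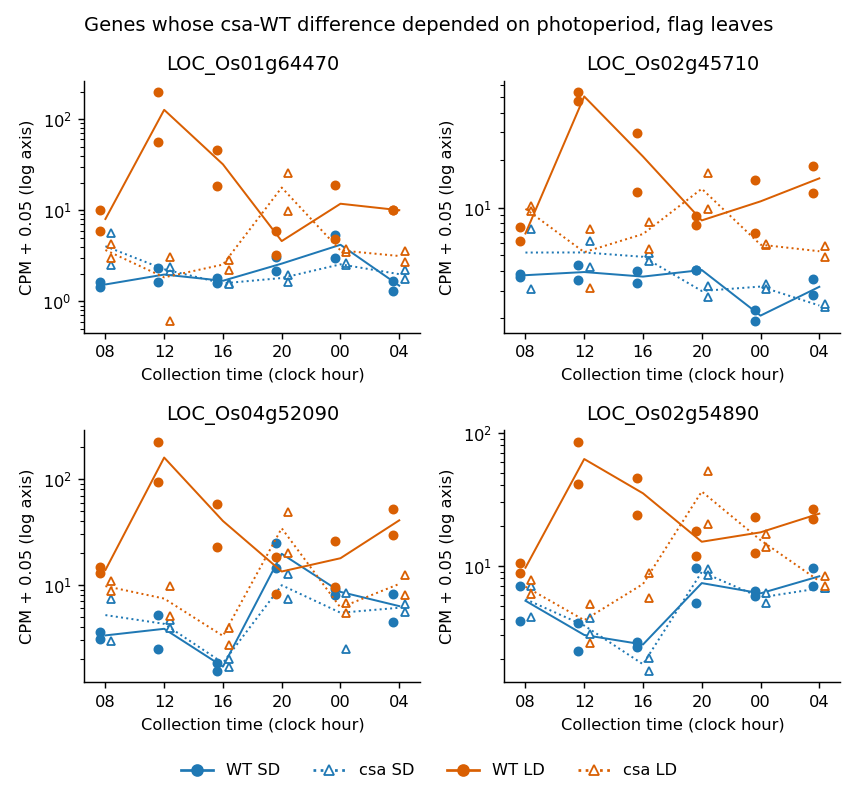
CPM + 0.05 on a log axis against collection time for the 4 genes that passed the interaction test with all libraries. None of them passed without the libraries labelled 12:00. There is 1 point per library, with symbols as in the plot of the 6 genes of highest score. WT LD points rise above the other groups at 12:00 and 16:00, and csa LD points have their highest mean at 20:00.

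The anthers gave a test of day length that the choice of genes did not use, although they came from the same tillers. Of the 100 genes, 80 passed the filter on low counts in anthers, and 22 stayed below 1 CPM in every anther library. Averaged over both genotypes and both times, 41 of the 80 were higher in LD anthers and 4 lower, 51.2% and 5% of those tested, where 14.5% of all tested anther genes were higher and 13.1% lower (edgeR quasi-likelihood test, adjusted p below 0.05). The median log2 difference, LD minus SD, was 0.51 in the 80 genes and −0.01 in all 25203 tested genes. Leaf markers summed to 581 to 3547 CPM in SD anthers (median 2312) and to 1158 to 2199 CPM in LD anthers (median 1457). The ranges overlapped, and whether these sums bear on the calls was not tested.

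LOC_Os07g48610 had the lowest p. Its WT libraries had 36.8, 53.1, 37.5 and 36.2 CPM in SD and 68.3, 70.6, 73.3 and 69.1 CPM in LD. Its csa libraries had 5.40, 5.90, 8.86 and 8.37 CPM in SD and 21.2, 11.1, 17.41 and 17.8 CPM in LD. Within each genotype the day lengths did not overlap, and the log2 difference over both was 1.06 ± 0.12 (edgeR adjusted p = 0.000265).

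LOC_Os06g09310 had 4.68, 6.61, 4.55 and 2.57 CPM in WT SD and 10.5, 12.3, 22.6 and 25.3 CPM in WT LD. In csa it had 6.11, 8.22, 11.9 and 11.2 CPM in SD and 9.75, 8.96, 13.3 and 11.4 CPM in LD, so that the ranges overlapped. The log2 difference was 1.92 ± 0.18 in WT (edgeR adjusted p = 0.000216) and 0.25 in csa (edgeR adjusted p = 0.351).

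Of the 4 genes lower in LD anthers, LOC_Os11g26880 fell by 0.39 on the log2 scale (SE 0.09; edgeR adjusted p = 0.0117). In WT it had 41.8, 36.8, 73.1 and 77.7 CPM in SD and 42.2, 33.6, 30.3 and 26.9 CPM in LD, a difference that the libraries of 04:00 carried. LOC_Os01g64470 had a log2 difference of −0.63, with an edgeR adjusted p of 0.0239 that ranged up to 0.127 when single libraries were left out. The other two were LOC_Os01g60910, with a log2 difference of −0.18 that no longer passed in 10 of 16 fits without 1 library (edgeR adjusted p up to 0.154), and LOC_Os12g06870, named to complete the count after its value was seen, with −0.30.

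By genotype, 39 of the 80 genes were higher in LD and 5 lower in WT anthers, against 14.6% and 14.3% of all tested genes. The 5 were LOC_Os09g10054, LOC_Os07g29940, LOC_Os11g26880 and, named to complete the count after their values were seen, LOC_Os12g06870 (log2 difference −0.58) and LOC_Os04g08550 (−0.78). In csa anthers 20 were higher and 4 lower, against 8.28% and 7.24%. The median log2 difference was 0.75 in WT and 0.25 in csa. In 15 genes LD passed as higher in both genotypes, and the share of all tested genes that did so is not given here. In 1 more, LOC_Os04g30030, the directions were opposite, with a log2 difference of 0.91 in WT (edgeR adjusted p = 0.0195) and −0.83 in csa (edgeR adjusted p = 0.0466). The csa count was the less stable: it fell from 24 to 8 without replicate 2 of csa SD at 16:00 or replicate 2 of csa SD at 04:00, and to 9 without replicate 1 of csa LD at 04:00. It fell to 11 without replicate 1 of csa SD at 04:00, and to 13 and 14 without replicates 1 and 2 of csa LD at 16:00. Whether the LD effect of the genes differed between genotypes in anthers was not tested.

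Examples from WT were large. LOC_Os03g46070 had 0, 0.352, 0.463 and 0.161 CPM in WT SD and 3.13, 4.54, 8.55 and 5.23 CPM in WT LD, a log2 difference of 4.39 ± 0.50 (edgeR adjusted p = 0.000403). LOC_Os09g10054 went the other way, with 14.4, 4.18, 5.79 and 4.71 CPM in WT SD and 2.07, 1.61, 0.875 and 1.33 CPM in WT LD (log2 difference −2.23 ± 0.40, edgeR adjusted p = 0.00268). In csa, LOC_Os01g57250 had 47.8, 35.8, 67.8 and 78.6 CPM in SD and 95.3, 90.8, 119 and 98.8 CPM in LD (log2 difference 0.87 ± 0.11, edgeR adjusted p = 0.0014). The day lengths did not overlap in any of these groups. Of the 4 genes lower in csa LD anthers, LOC_Os09g29540 had 1.46, 1.33, 1.27 and 1.69 CPM in SD and 0.222, 0.203, 1.20 and 1.38 CPM in LD, and its log2 difference was −1.43 ± 0.32 (edgeR adjusted p = 0.0148, up to 0.0583 when single libraries were left out). Its neighbour LOC_Os09g29600 had a log2 difference of −0.67 ± 0.19 (edgeR adjusted p = 0.0357, up to 0.132). The other two were LOC_Os01g64470, with a log2 difference of −1.20, and LOC_Os04g30030, named to complete the count.

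**Figure D5:**
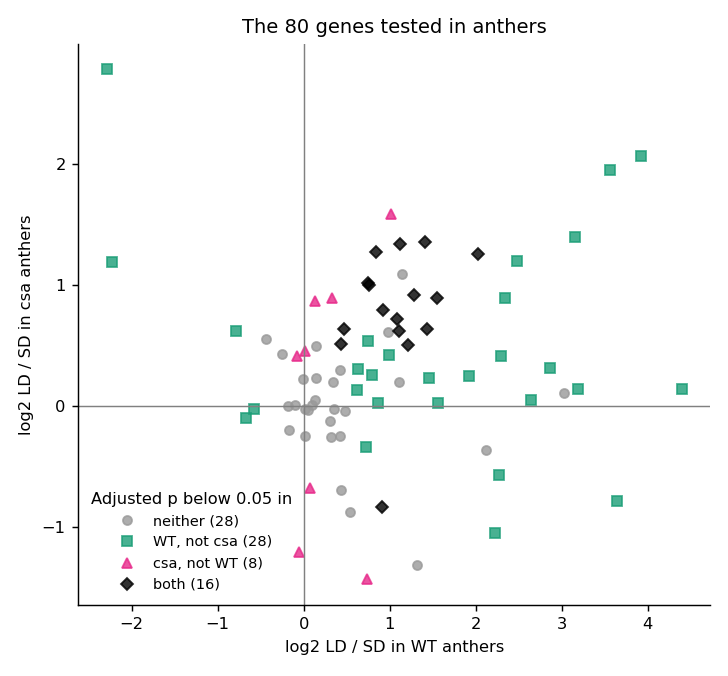
Log2 difference of LD and SD in csa anthers against that in WT anthers for the 80 genes tested, with 1 point per gene, marked by the genotypes in which its adjusted p was below 0.05. The difference passed in both genotypes in 16 genes, in opposite directions in 1 of them, in WT and not in csa in 28, in csa and not in WT in 8 and in neither in 28. The same split of all tested genes is not given, so these counts only describe the 80 genes.

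Calls in leaves and anthers were set side by side. Of the 25 genes lower in csa in LD leaves, 21 were tested in anthers, and 17 of these were higher and 1 lower in LD anthers of both genotypes together. Of the other 75 genes, 59 were tested and 24 were higher. The 17 thus make up 17 of the 21 and 17 of the 41 genes higher in LD anthers. This split was drawn from these data after the calls were seen and was not tested. Of all tested anther genes 14.5% were higher and 13.1% lower in LD. No such share is given for all genes lower in csa LD leaves. The 25 were called on leaf libraries that the rule also used, so no link between the tissues is read from these counts.

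In SD 27 of the 80 genes were higher and 9 lower in csa, 33.8% and 11.2% of those tested, against 25.8% and 21.7% of all tested genes. In LD 12 were higher and 15 lower, 15% and 18.8%, against 18.7% and 16.5%. The median log2 difference, csa minus WT, was 0.34 in SD and −0.12 in LD, and 0.08 and 0.04 in all tested genes.

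LOC_Os01g64470, lower in csa in LD leaves, was higher in csa anthers. It had 0.520, 0.264, 0.424 and 0.268 CPM in WT SD anthers and 14.5, 10.5, 11.6 and 12.2 CPM in csa SD anthers, a log2 difference of 4.97 ± 0.23 (edgeR adjusted p = 1.63e-07). In LD the difference was 3.82 ± 0.24 (edgeR adjusted p = 3.24e-06).

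The most abundant of the genes in anthers among those named, LOC_Os01g63270, was lower in csa. In SD it had 445, 777, 753 and 386 CPM in WT and 83.1, 86.5, 59.8 and 55.0 CPM in csa, without overlap (log2 difference −3.14 ± 0.39, edgeR adjusted p = 0.000101). In LD the difference was −2.56 ± 0.38 (edgeR adjusted p = 0.000656). LOC_Os07g48610, described above for day length, had a log2 difference of −2.60 ± 0.18 in SD and −2.16 ± 0.17 in LD (edgeR adjusted p = 2.25e-06 and 1.14e-05).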

How the data were processed

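RNA was sequenced from 48 flag leaf and 16 anther libraries of rice. The authors deposited raw read counts per gene, as 1 table for each tissue, per the labels; no source used here gives the aligner, counter, strandedness, genome build or annotation. Levels are CPM on library totals. Fold changes come from edgeR 4.0.16 in R 4.3.3: TMM scaling, filterByExpr (22095 leaf and 25203 anther genes kept), trended dispersions, the quasi-likelihood F-test on group means, 1 fit per tissue, and Benjamini-Hochberg adjustment over all genes tested. The fits were tested on simulated data. Libraries were not paired by replicate number in the main fits. Replicate differences of 2 groups correlated between −0.33 and 0.30 in leaves and between −0.36 and 0.35 in anthers. Of 276 pairs of leaf groups, 48 lay above 0.1 and 27 below −0.1. Of 28 pairs of anther groups, 9 lay above 0.1 and 10 below −0.1. Whether replicate numbers pair libraries was not tested further. Intervals are not given for single counts, and errors cover the spread between replicates. Each SE was computed as the size of the log2 difference divided by the square root of the F statistic. It is approximate, above all where a group is near 0 counts.

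The members and the gene lists were chosen with earlier results of these data known, so no count over them is independent support for the choice. Of the list symbols, 152 of 224 were found in the reference on the chromosome of their identifier, and the pairing of symbol and identifier was written from general knowledge. Genes named are the 10 of highest score, those in a list, up to 3 with the lowest p in each direction of a tested comparison, those at the edge of the rule, and, of the 6 flowering and clock genes with the lowest p, the 3 whose symbol is in the reference. Alternatives were RLE scaling, DESeq2 1.42.0, no filter on low counts, the replicate number as a block, no libraries labelled 12:00 (leaves), each library left out in turn, and other settings of the rule. The fits without 1 library kept the gene filter and trended dispersions of the fit to all libraries and estimated the quasi-likelihood spread anew; the group left with 1 library is assumed to vary like the others.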

Additional observations from a re-analysis of the deposited data

Results flagged for a closer look

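With all libraries, 4 genes passed the test of whether the difference between csa and WT in leaves depended on day length. The log2 difference in LD minus that in SD was −2.10 in LOC_Os01g64470, −1.13 in LOC_Os02g45710, −1.59 in LOC_Os04g52090 and −1.10 in LOC_Os02g54890. In each of them WT LD libraries at 12:00 stood far above csa LD libraries of that time: 47.5 and 53.5 CPM in LOC_Os02g45710 and 41.3 and 85.0 CPM in LOC_Os02g54890, where csa LD had 3.04 and 7.35 CPM and 2.56 and 5.12 CPM. The same leaf libraries chose the genes. None of the 4 passed without the libraries labelled 12:00.

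In anthers, all LD libraries of LOC_Os07g29940 lay below the SD libraries in WT and above them in csa, where the difference did not pass (log2 2.78, edgeR adjusted p = 0.119). Its 4 WT libraries had 0.884, 0.793, 0.579 and 1.12 CPM in SD and 0.396, 0.142, 0.0972 and 0.0951 CPM in LD. Its csa libraries had 0, 0, 0.0385 and 0 CPM in SD and 0.277, 0.0506, 0.0398 and 0.0432 CPM in LD. The fitted log2 differences of LD and SD were 5.07 apart, but this difference was not tested, and the csa libraries held few counts.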

How the results depend on the processing

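The choice of genes depended on its settings: 79 of the 100 were shared after TMM scaling, 73 without the libraries labelled 12:00, 58 with WT columns alone and 50 with csa columns alone, and 90 to 100 when single libraries were left out. In anthers the counts of genes passing under other settings lay between 44 and 46 (LD against SD, both genotypes), 44 and 51 (WT), 18 and 31 (csa), 36 and 37 (csa against WT in SD) and 26 and 32 (in LD). Leaving out single libraries, these counts ran from 40 to 44, 39 to 47, 8 to 28, 27 to 38 and 21 to 28. In leaves, csa against WT in SD gave 5 genes without the filter on low counts and 0 to 1 with single libraries left out. In LD it gave 6 without the libraries labelled 12:00 and 18 to 26 with single libraries left out. The interaction gave 9 with DESeq2, 20 without the filter, 0 without the libraries labelled 12:00 and 2 to 6 with single libraries left out; the cause of these shifts was not tested. Rhythmic genes numbered 77 to 90 in LD and 77 to 84 in SD, and 80 to 86 and 75 to 80 with single libraries left out. The replicate number as a block left 25 genes lower in csa LD leaves and 45 called in anthers for LD against SD. It gave 18 in csa anthers. For csa against WT in LD leaves the count reached up to 35 under another setting. No share of all tested genes stands beside the counts of this paragraph, so they only describe the set. Of 37 results for single named genes none changed sign and 29 passed in every fit. The 37 were chosen by their lowest p in the fit to all libraries, and some genes recur among them. Their stability is therefore not independent support. Anther counts of rare genes were near 0, which limits the precision of their differences.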
